A study of Homo sapiens with 4 samples.

Results

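The end of the long arm of chromosome 8, band 8q24.3, carried a dense block of the genomic intervals at which the transcription factor GATA4 was recovered in PaTu8988S cells. The block comprised the intervals of chromosome 8 that start at or beyond 140 Mb: 691 of 21308 intervals in the deposited list, and 691 of the 1978 on chromosome 8 (34.9%). The 1287 intervals of chromosome 8 before 140 Mb served as the reference. The block was chosen by the number of intervals it holds, so its density is given as a description, without a test. The label rests on position alone, as band limits were not among the data used here.

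The list came from CUT&RUN of GATA4 in PaTu8988S, an established pancreatic adenocarcinoma cell line, in 4 libraries. All 4 libraries form a single group, with 500000 cells and 10 ug of the anti-GATA4 antibody MAB2606 each. The labels name no treatment or genetic change, and the cells grew in DMEM with serum and antibiotics. In CUT&RUN, an antibody held on permeabilised cells directs a nuclease to the bound protein, and the DNA cut loose around it is sequenced. The file gives the chromosome, start and end of each interval common to the 4 libraries, in build hg19, with neither a score nor a value per library. There is thus no spread between libraries, no depth and no test over samples behind any value below, and the labels do not say whether the 4 libraries were separate cultures. Libraries with another antibody or without one were not analysed here.

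GATA4 is a zinc-finger factor that binds GATA motifs in the enhancers and promoters of endoderm and heart genes, and with its paralogue GATA6 it marks the classical subtype of pancreatic ductal adenocarcinoma. Its own gene lies on the short arm of chromosome 8, at the other end from the block. The terminal band of the long arm is rich in genes. In the RefSeq table of assembly GRCh38.p14, 105 of the 714 protein-coding genes of chromosome 8 (14.7%) come at or after TRAPPC9, a gene of this band, and none of them is GATA4 or MYC. Early in their order along the chromosome stand AGO2, which encodes the slicer of RNA interference, and PTK2, which encodes focal adhesion kinase. A run of LY6 family genes follows, among them PSCA, LY6K, LY6D, LY6E and LY6H, which encode small cell-surface or secreted proteins, with the steroid hydroxylase genes CYP11B1 and CYP11B2 in their midst. Further on come MAFA, a regulator of the insulin gene, GSDMD, the pore former of pyroptosis, and SCRIB, EPPK1 and PLEC, which organise polarity and the cytoskeleton of epithelia. Near the end stand HSF1, the heat-shock regulator, SLC39A4, a zinc importer, FOXH1, a partner of SMAD proteins, and a group of zinc-finger genes that ends with ZNF250 and ZNF16. This gene order is background: the table is of another build, so no interval was assigned to a gene, and whether intervals follow gene starts was not tested.

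The block held 109.98 intervals per Mb over 6.28 Mb, against 9.20 per Mb over the 139.9 Mb before it, a ratio of 11.95. The block is 4.30% of the stretch of chromosome 8 that carries intervals. It held 48.96% of the base pairs in that chromosome's intervals. Intervals covered 12.4% of the block, against 0.582% of the chromosome before it. Against the last 20 Mb before the block alone, which held 17.65 intervals per Mb, the ratio was 6.23.

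**Figure D1:**
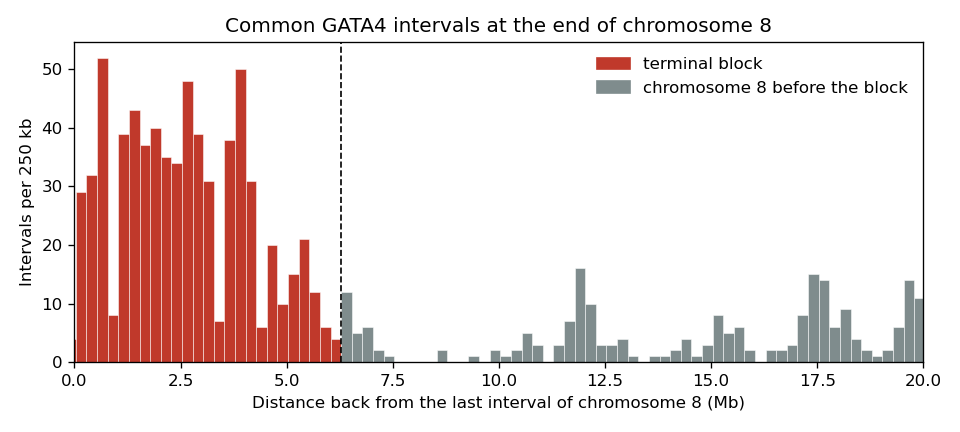
Intervals per 250 kb window (vertical axis) against the distance back from the last interval of chromosome 8 in Mb (horizontal axis), with the terminal block in red, the rest of the chromosome in grey and a dashed line at the rule's limit. Windows in the last 4.28 Mb held up to 52 intervals, and the first windows of the block, beside the dashed line, held 4 and 6; the narrow window at 0 is incomplete.

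The limit of 140 Mb did not coincide with a step in the counts. The first interval inside it ran from 140040957 to 140041478 (521 bp) and the last one before it from 139997328 to 139997702 (374 bp), with 43.3 kb between them. The next neighbours were 703 and 442 bp wide on the inside, and 781 and 393 bp on the outside. The first 250 kb of the block held 4 intervals, while the last 250 kb before it held 12. The 1 Mb windows held 43 intervals from 140 Mb and 51 from 141 Mb, and the window just before the block held 25.

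A step lay 2 Mb further in. The 500 kb before that point held 26 intervals and the next 500 kb held 81. The 1 Mb windows beyond it held 126, 152, 155 and 131 intervals, and the last 0.283 Mb held 33. The block thus joined a first part of 94 intervals in 2 Mb (47 per Mb, 3.47% covered) to a second part of 597 intervals in 4.28 Mb (139.4 per Mb, 16.6% covered). This dividing point was read from the same counts and carries no test.

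Long stretches without intervals were few in the block. Counted in fixed bins of 100 kb from its start, all 63 bins, the last of them incomplete, held an interval. Of these bins, 35 (55.6%) held 10 or more. Before the block, 803 of 1400 bins (57.4%) were empty and 3 (0.214%) held 10 or more. These counts partly restate the density that the rule used. The fullest bin, from 143.5 to 143.6 Mb, held 25 intervals. Next came the bins from 143.8 Mb and from 145.6 Mb, with 22 each. The longest stretches without an interval in the block ran from 142727494 to 142847936 and from 145319244 to 145439661, each of 120.4 kb, with another of 101.8 kb from 141809973 to 141911807. The first pair lay mostly or wholly in the 250 kb windows from 142.75 Mb (7 intervals) and 145.25 Mb (8 intervals). Before the block the longest such stretch ran from 2329547 to 6417139 (4.09 Mb), on the short arm.

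Intervals of the block were wider than those before it. Width was not part of the rule, but an earlier description of the same list had already shown wider intervals on denser chromosomes, so the difference is no independent result. The median width was 940 bp in the block (quartiles 595.5 and 1382.5 bp) and 551 bp before it (quartiles 406 and 743 bp), a ratio of 1.71, and the median of the list was 586 bp. Widths in the block were higher at each percentile from 1 to 99, though not at the maximum, which was 6117 bp in the block and 10677 bp before it. The 5th percentiles were 376 and 265 bp (ratio 1.42) and the 95th percentiles 2590 and 1205 bp (ratio 2.15), in the block and before it. The narrowest interval was 207 bp in the block and 92 bp before it. The upper quartile of the list, 859 bp, was exceeded by 371 of 691 intervals in the block (53.7%) and by 202 of 1287 before it (15.7%).

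**Figure D2:**
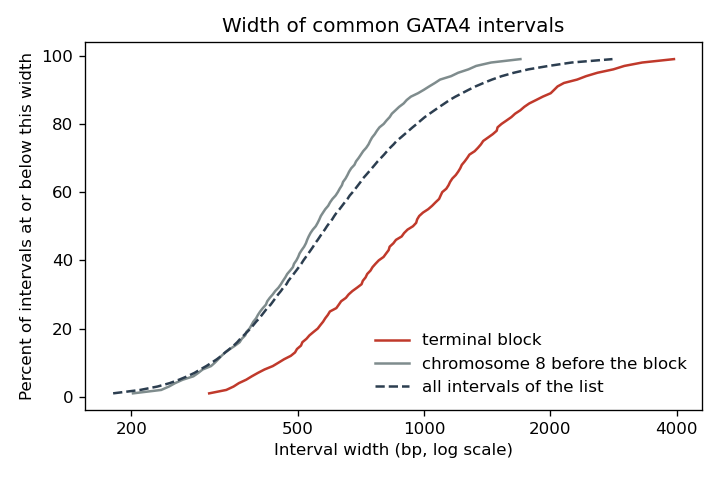
Percent of intervals (vertical axis) at or below a given width in bp (horizontal axis, log scale), for the terminal block in red, chromosome 8 before it in grey and the whole list dashed. The red curve crosses 50% at 940 bp, the grey curve at 551 bp and the dashed curve at 586 bp, and the red curve lies to the right of both over the percentiles drawn, 1 to 99.

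Wide intervals were concentrated in the block. There 77 intervals (11.1%) were 2 kb or wider, against 7 (0.544%) before it and 616 (2.91%) in the list. The block held 3.27% of the list's intervals, and 77 of the 616 of this width. Of the 100 widest intervals of chromosome 8, 91 were in the block, and of the 10 widest, 7 were.

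The 10 widest intervals of the block lay within 2.5 Mb of its end, the furthest of them 2.46 Mb from it. The share of all block intervals in that stretch was not counted. The widest, of 6117 bp, ran from 144460131 to 144466248. The next, of 6065 bp, ran from 144990266 to 144996331. An interval of 5146 bp began at 143819010 and one of 4733 bp at 145657663. Widths of 4187, 4183 and 4104 bp belonged to the intervals that start at 145022530, 145736775 and 146045370. The last 3 of the 10 start at 144999607 (3925 bp), 144944528 (3913 bp) and 144686944 (3701 bp). Of the 10, 9, all but the one from 146045370, belonged to clusters of 10 or more intervals. Of all 691 block intervals, 424 (61.4%) did so. Even so, the block did not hold the widest interval of chromosome 8, which ran from 86778983 to 86789660 (10677 bp), nor the next, from 46848883 to 46857692 (8809 bp).

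Several wide intervals were neighbours parted by 100 bp or less. Of the 10 widest, 5 had a gap of 100 bp or less on at least one side. Of all 690 gaps in the block, 46 (6.67%) were that short, against 1.79% before the block and 4.66% in the list. These shares count gaps, each of which borders 2 intervals. They are thus not the share of all intervals with so short a gap on a side. When pieces that close were joined, the 691 intervals became 645, of which 41 were made of 2 or more pieces and the largest number of pieces was 4. The widest joined stretch, of 13266 bp and 3 pieces, ran from 144990266 to 145003532. A stretch of 9745 bp from 144940903 and one of 7476 bp from 145736775 had 4 pieces each. Joining moved the median width little, to 963 bp in the block and 553.5 bp before it.

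Width and number were both lower in the first 2 Mb of the block than in the next 2 Mb. From 4 to 6 Mb into the block, number changed little while width rose further. The first 2 Mb had a median of 621.5 bp, and 2 of its 94 intervals (2.13%) reached 2 kb. From 2 to 4 Mb into the block the median was 955 bp and 23 of 278 intervals (8.27%) reached 2 kb. From 4 to 6 Mb into it the median was 1099 bp and 51 of 286 (17.8%) did so, and over the remaining 0.283 Mb the median was 758 bp and 1 of 33 did. Among the 1 Mb windows, the one that begins 4 Mb into the block held the most intervals (155, median 1083 bp), and the one after it had the highest median (1107 bp, 131 intervals).

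Over the 26 windows of 250 kb in the block, the count and the median width of a window had a Pearson r of 0.84 and a Spearman rho of 0.86. The last of these windows, from 146.25 to 146.283 Mb, is incomplete, and its count of 4 intervals stands for 120 per Mb. Over the 172 windows before the block with 3 or more intervals, r was 0.11 and rho 0.19, and over the 28 windows of 5 Mb before it r was 0.32 and rho 0.33. These are descriptions: neighbouring windows share their surroundings and their 4 libraries, and medians of few intervals are noisy. The 9 block windows with under 20 intervals, the incomplete one among them, had medians from 481.5 to 824 bp. This was inside the range of the windows before the block (288 to 1111 bp). The middle value of these window medians was 686 bp over the 9 block windows and 562 bp over the 172 before the block. The 17 block windows with 20 or more intervals had medians from 618 to 1257 bp. Only 2 windows before the block held 20 or more intervals, from 43.75 Mb (28 intervals, median 350 bp) and from 46.75 Mb (20 intervals, median 449 bp). Most of their intervals were narrow, but they also held 3 of the 7 intervals of 2 kb or more before the block, of 8809, 4245 and 3882 bp. These windows lie on either side of the centromere, at the ends of a stretch without intervals from 43830376 to 46848883. The ground of that stretch was kept in the span and among the empty bins counted before the block.

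**Figure D3:**
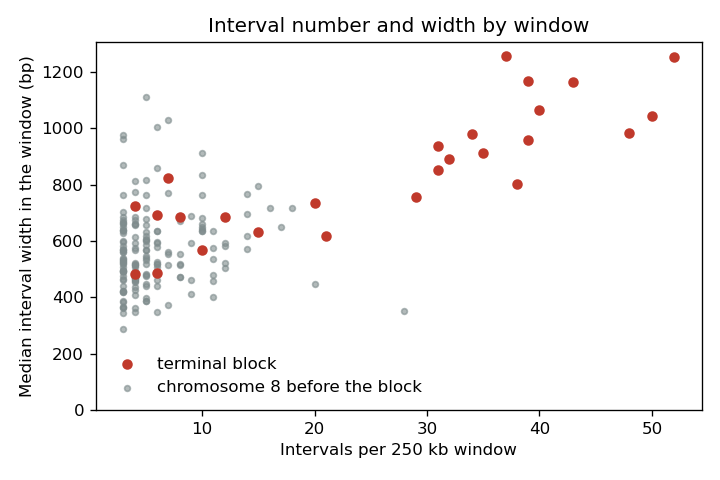
Median interval width in bp (vertical axis) against the number of intervals (horizontal axis) in 250 kb windows. Red points are the 26 windows of the terminal block, the last of them incomplete. Grey points are the 172 windows of chromosome 8 before it with 3 or more intervals. Red points climb to 52 intervals and 1257 bp, whereas the grey points with most intervals, 20 and 28, have medians of 449 and 350 bp.

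Within the block, intervals close to another were the wider ones. The 273 intervals with a neighbour within 1 kb had a median of 1118 bp, the 370 whose nearest neighbour was 1 to 12500 bp away 887.5 bp, and the 48 with none within 12500 bp 626.5 bp. Before the block the same classes had medians of 563.5 bp (126 intervals), 562 bp (477) and 530.5 bp (684). The share with a neighbour within 1 kb was 39.5% in the block and 9.79% before it. Intervals that stood alone were thus also wider by the median in the block, and the medians of the 3 classes lay further apart there than before it.

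Linked by distance, the intervals of the block formed many clusters of moderate size. Linking intervals no more than 12500 bp apart gave 58 clusters of 3 or more, with 615 of the 691 intervals (89.0%), against 81 clusters with 329 of 1287 (25.6%) before the block. The median gap between neighbours was 3.64 kb in the block and 35.9 kb before it. Intervals with no neighbour in reach numbered 48 (6.95%) in the block and 684 (53.1%) before it. Clusters of 20 or more, here called dense tracts, numbered 9 in the block, with 292 intervals (42.3%), and 2 before it, with 48 (3.73%). Another 9 clusters of the block held 10 to 19 intervals, a size that no cluster before the block had. The mean spacing was 9.09 kb per interval in the block, below the linking distance, and 108.7 kb before it. These gap and cluster counts thus partly restate the density that the rule used.

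The first tract began 2.16 Mb into the block. Near the step stood the tracts from 142163855 to 142299808 (31 intervals, 24.2% covered), from 142350770 to 142461861 (33, 34.1%) and from 142523327 to 142663868 (28, 20.2%). In the middle came those from 143186331 to 143287529 (21, 19.99%), from 143490027 to 143711478 (48, 24.6%) and from 143799377 to 143909504 (26, 29.7%). A pair of adjoining tracts followed, from 144869654 to 144977730 (26, 32.99%) and from 144990266 to 145068830 (21, 45.8%). The largest of the block ran from 145506084 to 145781501, over 275 kb, with 58 intervals of 1260 bp in the median and 32.0% covered. The highest median width of the 18 clusters with 10 or more, 1975.5 bp, belonged to a smaller one of 14 intervals from 145101430 to 145166543, and the lowest, 673 bp, to the last, of 13 intervals from 145897787 to 145963997. In the block, the median width was 1054.5 bp in tracts, 1158.5 bp in clusters of 10 to 19 and 797 bp in clusters of 3 to 9. For block intervals alone or in pairs it was 626.5 bp. Before the block, tracts had the narrowest intervals: the medians were 386.5 bp in tracts, 603 bp in clusters of 3 to 9 and 542 bp alone or in pairs. The number of tracts in the block depended on the linking distance: 5 kb left 0 and 25 kb gave 10.

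**Figure D4:**
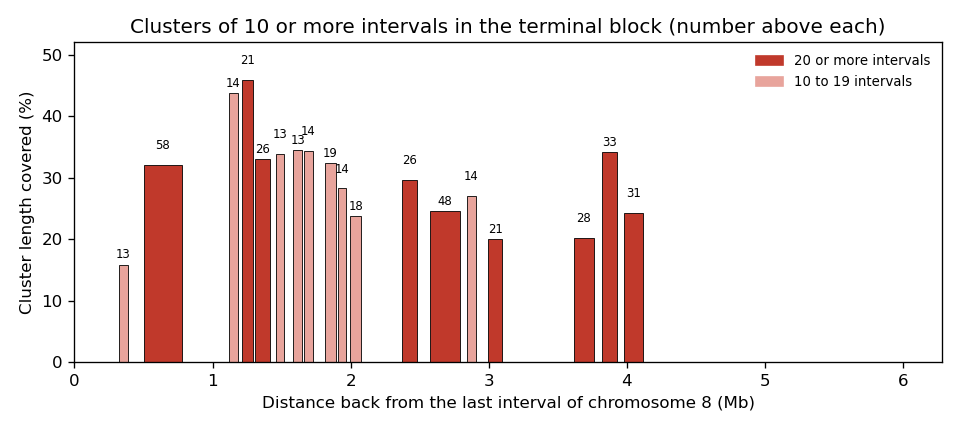
The 18 clusters of 10 or more intervals in the terminal block, drawn to scale by distance back from the last interval of chromosome 8 in Mb (horizontal axis), with the percent of each cluster's length that intervals cover as bar height and the number of intervals above each bar. Coverage runs from 15.9% to 45.8%, and no cluster of this size lies in the first 2 Mb of the block, at the right of the axis.

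The block was then set beside other chromosome ends, each taken as the last 6.28 Mb up to a chromosome's last interval. Chromosome 8 had the most intervals of 23, with 691. Chromosome 20 followed with 471, chromosome 3 with 405 and chromosome 14 with 189, and the 22 other ends had a median of 50.5 (range 4 to 471). Its median width of 940 bp also ranked highest, ahead of chromosome 20 with 811 bp and chromosome 14 with 728 bp. The median over the 22 other ends was 594 bp, and their range 297 to 811 bp. The block was picked for its number of intervals and the length compared is its own, so its rank by number is no independent result. Nor is its rank by width, as wider intervals on denser chromosomes were already known in this list. The opposite end of chromosome 8 was nearly bare: its first 6.28 Mb from the first interval on held 12 intervals with a median of 407 bp.

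**Figure D5:**
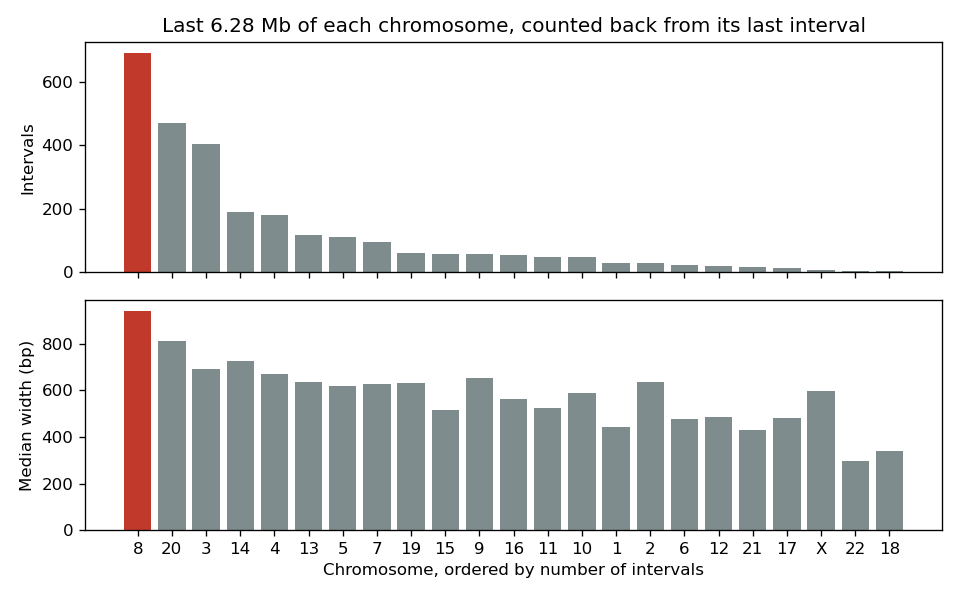
Number of intervals (upper axis) and median interval width in bp (lower axis) in the last 6.28 Mb of each chromosome, counted back from its last interval, with chromosome 8 in red and at the left. Chromosome 8 is highest on both axes, with 691 intervals and 940 bp, but its block was picked for its number of intervals.

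Compared with the other fullest 5 Mb windows of the genome, intervals in the first 5 Mb of the block were spread more evenly, by counts that carry no test. Its first 5 Mb held 527 intervals, rank 3 among the 5 Mb windows of the genome by number and rank 2 by base pairs covered (11.5%). The chromosome 20 window from 50 Mb held 664 intervals (10.4% covered), the chromosome 18 window from 20 Mb 589 (15.7%) and the chromosome 19 window from 35 Mb 511 (11.5%). The 10 fullest of 50 bins of 100 kb held 38.9% of the intervals in the chromosome 8 window, against 42.3% in that of chromosome 20, 62.8% in that of 19 and 66.4% in that of 18. The largest cluster held 9.11% of the window's intervals on chromosome 8, and 21.8%, 45.99% and 44.8% in the windows of chromosomes 20, 19 and 18. Bins without an interval numbered 0 on chromosome 8, and 8, 2 and 26 in the windows of chromosomes 20, 19 and 18. Each window is a fixed cell of 5 Mb, so it need not match the limits of a dense block. The longest stretch without an interval was 120.4 kb in the chromosome 8 window. It was 407.2 kb, 193.9 kb and 1.96 Mb in those of chromosomes 20, 19 and 18.

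Widths in these windows differed as well. The median was 904 bp in the chromosome 8 window, against 1102 bp in that of chromosome 18, 883 bp in that of 19 and 691.5 bp in that of 20. Intervals of 2 kb or more made up 10.06% of the chromosome 8 window, and 19.02%, 8.02% and 1.66% of the windows of chromosomes 18, 19 and 20. Of the gaps between neighbours, 7.03% were 100 bp or shorter in the chromosome 8 window, and 19.05%, 12.35% and 5.88% in those of chromosomes 18, 19 and 20. The chromosome 20 window, with the most intervals, thus had narrower intervals than the chromosome 8 window. The rest of the block, beyond its first 5 Mb, had a median of 996.5 bp over 164 intervals, which was rank 2 among the 42 windows of the genome with 100 intervals or more.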

How the data were processed

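The data were 1 deposited list of intervals, which the labels describe as common to the 4 GATA4 CUT&RUN libraries. Its values beside the chromosome, the start and end of each interval in bp, are positions as deposited, with no score. The submitters' processing notes name build hg19, the CUT&RUN peak caller SEACR and the annotation package HOMER. Their versions and settings, and the overlap needed for an interval to count as common, are not given in the sources used. The list held 21308 intervals, of which the 21139 on the 22 autosomes and chromosome X were used for values over the list. On the build, 151 intervals of the block have start positions beyond the last gene of chromosome 8 in the GRCh38.p14 table. Its coordinates were otherwise used only for the order of genes. As these positions are of different builds, the count does not place those intervals in ground without genes. Whether starts count from 0 or 1 is not stated, so widths (end minus start) may be 1 bp short.

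Density was taken over the span from 140 Mb to the last interval's end, or from the first interval's start to 140 Mb. A window takes the intervals that start in it. Clusters joined neighbours across gaps of up to 12500 bp, a step checked on simulated intervals. Intervals were named by rule: the 10 widest, those at the edges, and the ends of each dense tract. Other stretches without intervals, clusters and joined pieces were named after their values were seen. The block, the gene lists (LY6 family, epithelial structure, zinc finger genes, metabolism) and the measures were chosen with earlier results of these data known; all 10, 5 and 15 genes of the first, second and last list, and 11 of 12 zinc finger genes, are coding genes at or after TRAPPC9 in that table. No test was run, since the pooled list leaves no samples to compare, and depth per library is unknown. Python 3.11.15, numpy 2.4.6, pandas 2.3.3 and matplotlib 3.10.9 were used.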

Additional observations from a re-analysis of the deposited data

How the results depend on the processing

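The list is pooled, so no library could be left out, and its depth is unknown: ground without an interval shows only that none common to the 4 libraries was listed. No paired analysis was possible because the list has no values per library. Promoter distances were not run, as an hg19 annotation was not used here. Of 34 recomputed values, 22 stayed within 1.5 times, 12 moved further and 0 reversed. Leaving out dense tracts was chosen after seeing the data; the ground of the tracts was kept in the span. The ratio of density, 11.95, was 20.5 for intervals at or above the median width, 7.04 with the block begun 5 Mb earlier, 6.23 against the 20 Mb before it and 7.17 without dense tracts. Intervals per Mb, 109.98, became 64.96 when begun 5 Mb earlier and 63.5 without dense tracts. The ratio of median width lay between 1.497 and 1.88 over its 6 alternatives. Clusters of 3 or more, 58, numbered 29 with a linking distance of 25 kb. Dense tracts, 9, numbered 4 after merging within 1 kb, 0 with 5 kb, 18 with 10 intervals or more and 1 with 50 or more. Gaps counted as short, 6.67% at 100 bp, were 23.3% at 1 kb. The direction of some shifts is set by definition: a higher limit for short gaps or a lower minimum for a tract can only add to the count. A higher minimum can only lower it. The cause of the other shifts was not tested.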
